A study of Mus musculus with 2 samples.

Results

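Imprinted genes are transcribed mainly or only from the copy inherited from one parent. A set of 35 of them, out of 55536 annotated genes, was described in total RNA from mouse heart. The set was a list of gene symbols of known imprinted loci, a rule that uses no measured value, and each symbol matched exactly 1 gene identifier. Hearts were taken from adult males, 8 to 10 months old, whose strain is given as 5xFAD/CAST. The 5xFAD line models familial Alzheimer's disease through transgenes driven by the neuronal Thy1 promoter. CAST, an inbred strain of wild origin, belongs to another mouse subspecies than the common laboratory strains. The labels do not say which strain was the mother or whether these animals carried the transgenes. There was 1 group of 2 libraries, called library 1 and library 2, each made from 300 ng of RNA with ERCC spike-ins added, and the library kit kept strand and followed a ribosomal RNA reduction. The labels call them biological replicates yet give 1 donor identifier for both, so separate animals are not established and their spread may be technical. With 1 group there was no contrast and no test, and with 2 libraries every SD below rests on n = 2. The deposited tables do not split reads by allele, so the values are levels of both parental copies together, and parental origin below is background knowledge.

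Imprinting is set in the germ line by DNA methylation at imprinting control regions, which marks 1 parental copy. Within a cluster, some genes are then silent on the maternal copy and others on the paternal copy. Long non-coding RNAs such as H19, Airn, Kcnq1ot1 and Meg3 sit at these regions, and the protein-coding genes around them include many regulators of fetal growth. Many of these genes are highly expressed in fetal tissue and placenta and are turned down after birth. Several, such as Ube3a, Snrpn and Ndn, are studied mostly for their roles in the brain. Of the 35 genes, 23 are known for transcription from the paternal copy and 12 for the maternal copy, in some cases only for 1 isoform or tissue.

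Levels are given as TPM, a relative abundance that corrects for transcript length and library total. Library 1 held 39668202 expected counts on annotated genes and library 2 held 36926511. A single count on 1000 bases of effective length was worth 0.0302 TPM in library 1 and 0.0321 TPM in library 2. The tissue label matched its markers, since all 6 cardiomyocyte genes were above 1 TPM, with a summed level of 26102 TPM in library 1 and 25881 TPM in library 2. The adipocyte markers differed between the libraries, with a summed level of 10.6 TPM in library 1 and 39.4 TPM in library 2.

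Promoter sequences were matched for 29 of the 35 genes, in 44 windows from RefSeq (GRCm38.p6) that reach from 250 bases before to 50 bases after a start. Grb10, Igf2, Igf2r, Airn and the Peg3 and Usp29 pair are shown, because the transcript tables bear on which of their starts was used or on how a pair with facing starts differed. Each line gives the 250 bases before the start, or the whole gap for Peg3 and Usp29, 5′ to 3′ along the strand of the gene, with every CpG in capitals. CpG is the pair of bases that carries the methylation of an imprint.
Grb10, window 1, chr11:12037421-12037670, minus strand: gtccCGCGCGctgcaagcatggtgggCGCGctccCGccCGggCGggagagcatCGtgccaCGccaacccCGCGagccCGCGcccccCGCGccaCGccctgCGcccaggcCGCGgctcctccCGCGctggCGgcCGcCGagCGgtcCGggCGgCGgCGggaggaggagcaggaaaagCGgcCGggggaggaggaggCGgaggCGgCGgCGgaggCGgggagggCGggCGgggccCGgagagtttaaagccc
Grb10, window 2, chr11:12027972-12028221, minus strand: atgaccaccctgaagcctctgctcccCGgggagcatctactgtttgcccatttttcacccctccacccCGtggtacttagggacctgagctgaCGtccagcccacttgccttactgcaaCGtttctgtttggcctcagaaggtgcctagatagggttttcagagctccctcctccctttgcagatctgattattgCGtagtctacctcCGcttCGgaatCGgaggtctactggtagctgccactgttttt
Igf2, window 3, chr7:142658805-142659054, minus strand: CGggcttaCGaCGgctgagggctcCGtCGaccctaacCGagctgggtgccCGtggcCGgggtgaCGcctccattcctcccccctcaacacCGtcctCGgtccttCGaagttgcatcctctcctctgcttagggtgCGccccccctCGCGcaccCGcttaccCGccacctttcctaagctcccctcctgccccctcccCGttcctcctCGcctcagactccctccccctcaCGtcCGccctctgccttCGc
Igf2, window 4, chr7:142657497-142657746, minus strand: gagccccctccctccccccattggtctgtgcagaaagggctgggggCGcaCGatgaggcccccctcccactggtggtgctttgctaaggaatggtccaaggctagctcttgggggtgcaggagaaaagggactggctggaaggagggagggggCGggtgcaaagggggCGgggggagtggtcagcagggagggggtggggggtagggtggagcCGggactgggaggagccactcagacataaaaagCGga
Igf2r, chr17:12769707-12769956, minus strand: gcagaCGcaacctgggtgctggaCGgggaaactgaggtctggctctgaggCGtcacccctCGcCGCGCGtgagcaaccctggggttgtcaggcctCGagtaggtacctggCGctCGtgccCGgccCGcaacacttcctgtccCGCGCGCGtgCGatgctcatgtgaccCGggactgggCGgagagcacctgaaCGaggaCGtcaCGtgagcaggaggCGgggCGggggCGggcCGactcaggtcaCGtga
Airn, chr17:12741061-12741310, plus strand: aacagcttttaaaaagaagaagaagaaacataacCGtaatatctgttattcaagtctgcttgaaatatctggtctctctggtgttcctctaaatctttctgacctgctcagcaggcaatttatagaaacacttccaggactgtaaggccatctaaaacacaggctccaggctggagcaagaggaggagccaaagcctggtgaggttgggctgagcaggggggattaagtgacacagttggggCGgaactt
Peg3 to Usp29, gap between the annotated starts, chr7:6730432-6730577, plus strand: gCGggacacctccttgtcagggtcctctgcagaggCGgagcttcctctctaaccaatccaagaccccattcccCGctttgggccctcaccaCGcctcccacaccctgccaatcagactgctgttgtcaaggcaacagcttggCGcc

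These sequences differ widely in CpG. The first Grb10 stretch holds 40 CpG and the second 8, and the Igf2r stretch holds 27 against 2 for Airn. Transcripts with a 5′ end in the Airn window held 5.69% ± 3.85 of Airn TPM, but that window ends at 12741360. Airn-201, with 49.2% ± 2.9 of Airn TPM, starts just past it at 12741374, and Airn-203, with 16.2% ± 3.5, at 12741385. The low share thus depends on where the window ends. No annotated transcript starts in Igf2 window 3. For counts over whole 300-base windows, 1 window was kept per gene, the one whose start lay nearest the gene's outermost annotated 5′ end. The median over the 29 genes was 13 CpG, beside 11 over the 20595 genes with a window. Over all genes the windows of those at 1 TPM or more in both libraries had a median of 21 CpG, against 4 for those below. Among the imprinted genes the corresponding medians were 12 CpG for 16 genes at 1 TPM or more and 15 CpG for 13 below. The window kept was not always the start in use. It held 99.7% ± 0.1 of TPM for Igf2r but 1.92% ± 2.72 for Mest, where a window with 17 CpG held 84.4% ± 11.2. These medians thus do not describe the starts in use. TATAAA, searched on both strands, lay in the windows of 6 of the 29 genes (20.7%), beside 13.2% of all genes with a window. GCCATNTT, the core of the YY1 motif, searched on both strands, lay in 2 of 29 (6.9%), beside 6.47%. These matches describe letters in the windows only.

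A level of at least 1 TPM in both libraries was reached by 20 of the 35 genes (57.1%), against a background of 21% of all annotated genes. Gene type moved with that gap: 16 of the 29 protein-coding members (55.2%) passed beside 48.9% of all protein-coding genes. Of the 6 long non-coding members, 4 passed (Airn, H19, Meg3 and Rian), beside 3.15% of long non-coding genes. By parental copy, 12 of 23 paternal and 8 of 12 maternal genes passed. Only Ascl2 and Phlda2 were listed at 0 in both libraries, which held for 57.1% of all annotated genes. The median level of the 35 genes was 1.33 TPM in library 1 and 1.5 TPM in library 2 (1.42 ± 0.12, SD), beside 0.985 ± 0.007 TPM for protein-coding genes. Together the set held 0.0375% ± 0.0018 of the TPM of genes outside the mitochondrial chromosome. In order of mean TPM, Ube3a led, and the next genes, Snrpn (31.45 and 34.00) and Igf2r (32.91 and 31.95), did not differ beyond their spread. Of Ube3a TPM, 23.9% ± 2.1 lay on Ube3a-211 (579 bases) and 17.8% ± 3.9 on Ube3a-209 (616 bases). They held 2.98% and 2.38% of its counts. The second quantification put 9.33% ± 11.96 and 2.68% ± 0.84 on them, but 33.2% ± 18.1 on Ube3a-212 (442 bases). The Ube3a lead thus rests in part on short transcripts. Ube3a, Snrpn and Igf2r alone held 50.5% ± 1.7 of the set's TPM, and the 12 maternal genes held 58.0% ± 1.8. The maternal genes summed to 128.63 and 117.34 TPM, beside 88.52 and 89.55 TPM for the 23 paternal genes. Ube3a, at 42.61 and 40.91 TPM, is part of the maternal sum though it is transcribed from both copies outside neurons. The maternal lead thus rests on Ube3a.

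**Figure D1:**
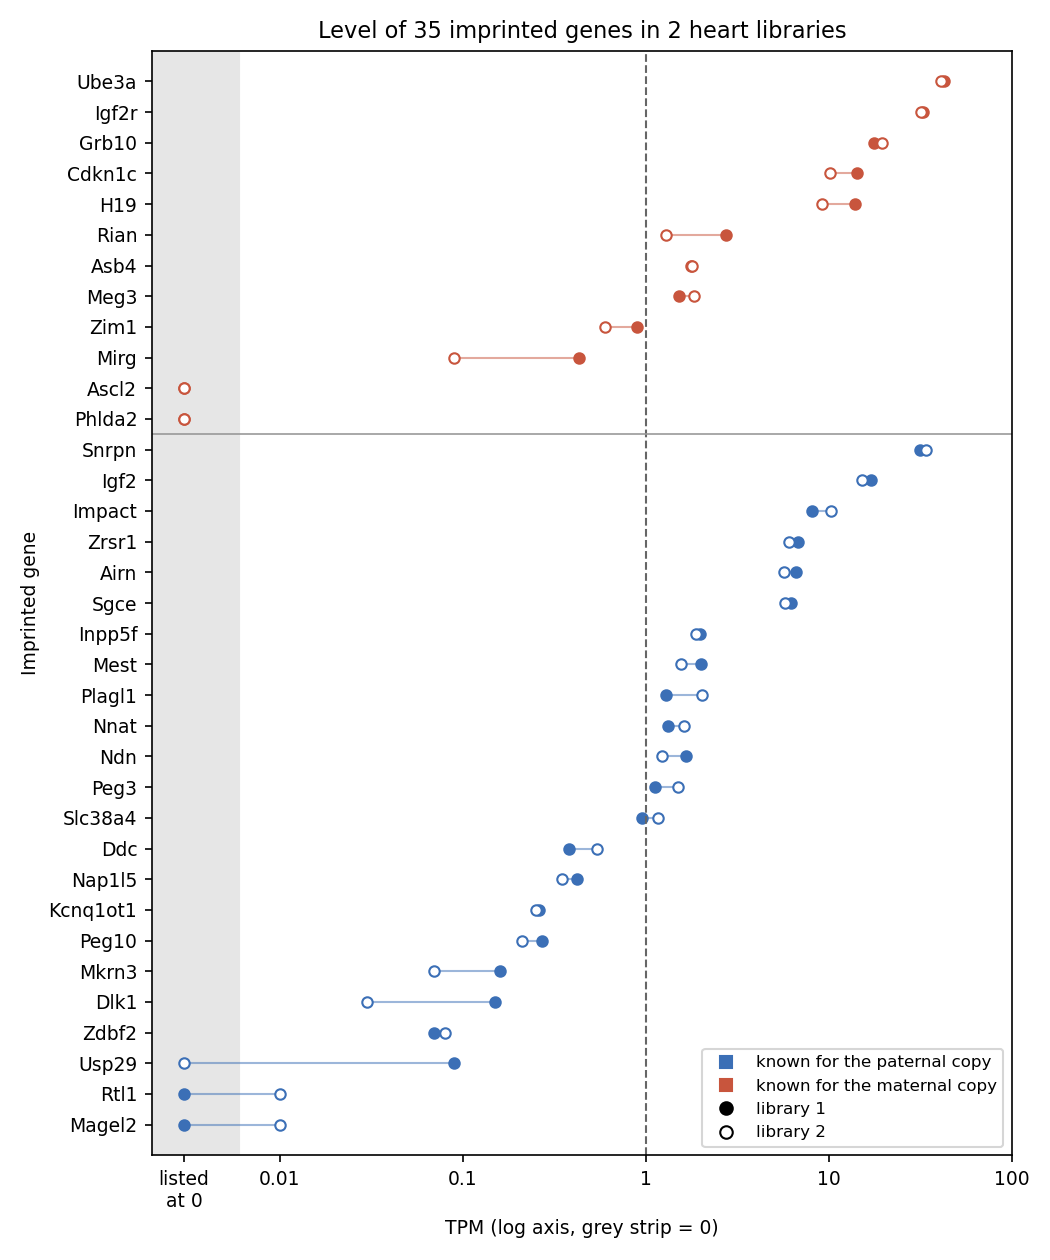
TPM of each of the 35 imprinted genes on a log axis, filled points for library 1 and open points for library 2, coloured by the parental copy the gene is known for. The dashed line marks 1 TPM and the grey strip holds values listed at 0. Ube3a, Igf2r and Snrpn sit highest, between 31.45 and 42.61 TPM, and Ascl2 and Phlda2 are at 0 in both libraries.

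The growth axis around insulin-like growth factor 2 was among the better measured of the set. Igf2, a fetal growth factor, stood at 17.12 TPM in library 1 and 15.24 TPM in library 2. H19, the non-coding RNA that shares enhancers with Igf2 and is transcribed from the other parental copy, stood at 13.87 and 9.14 TPM. Library 1 was higher for both genes. The ratio of H19 to Igf2 was 0.810 in library 1 and 0.60 in library 2 (0.705 ± 0.149), with 72622 bases between the genes on chromosome 7 (mm10), H19 at 142575529 to 142578143 and Igf2 at 142650766 to 142666816.

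Igf2r, the receptor that carries IGF2 to the lysosome for degradation, was above its ligand in both libraries, at 32.91 and 31.95 TPM. It had the most reads of the set, with 9551 and 8737 expected counts. Airn, the non-coding RNA whose transcription over the Igf2r start silences the paternal Igf2r copy, stood at 6.65 and 5.72 TPM. The genes overlap by 28354 bases on chromosome 17 on opposite strands, and the ratio of Airn to Igf2r was 0.202 and 0.179 (0.191 ± 0.016). Airn's annotated gene spans 118826 bases, but its entries are spliced transcripts with an average length of 1066 bases in library 1, so its TPM covers only those exons. The strand setting of the counting is not given in the sources used here. Without it, reads of the unspliced Airn RNA inside Igf2r introns cannot be assigned, and the same holds for every overlapping pair below.

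Grb10 and Cdkn1c, both maternal, restrain growth in the fetus. Grb10, an adaptor that inhibits signalling by insulin and insulin-like growth factor receptors, stood at 17.69 and 19.54 TPM. Cdkn1c, the cyclin-dependent kinase inhibitor p57, stood at 14.21 and 10.21 TPM. Neither library was higher for both genes. Ddc, the neighbour of Grb10 that makes aromatic amine transmitters and has an imprinted isoform known from developing heart, stood at only 0.38 and 0.54 TPM, on 13 and 14 expected counts. Grb10 exceeded Ddc 46.6-fold in library 1 and 36.2-fold in library 2.

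Plagl1, a zinc finger factor placed at the centre of an imprinted growth network, stood at 1.29 and 2.02 TPM. Its expected counts went the other way, 210 in library 1 and 162 in library 2. The average transcript length assigned to it was 5013 bases in library 1 and 2667 in library 2, and TPM divides by that length. The second quantification gave 1.94 and 2.04 TPM. The deposited interval for Plagl1, whose level the file does not state, was 2.68 to 4.66 TPM in library 1, above its point value there.

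Kcnq1ot1, the long RNA that silences the paternal copies of Cdkn1c and its neighbours, showed how far length sets these values. Kcnq1ot1 had 811 and 732 expected counts, more than Cdkn1c with 607 and 451. Spread over 93092 bases, that came to 0.26 and 0.25 TPM. The ratio of Cdkn1c to Kcnq1ot1 was thus 47.7 ± 9.8 by TPM but 0.682 by counts. Kcnq1ot1 lies within the potassium channel gene Kcnq1 (10.62 and 11.18 TPM) on the opposite strand. Phlda2 and Ascl2, placental growth regulators of the same cluster, had 0 counts in both libraries. For Phlda2 a count of 0 allows up to 3 counts, or 0.227 TPM in library 1 and 0.241 TPM in library 2. For Ascl2 the limits were 0.0816 and 0.0867 TPM. The deposited intervals reach higher, to 0.584 TPM for Phlda2 and 0.150 TPM for Ascl2 in library 1.

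**Figure D2:**
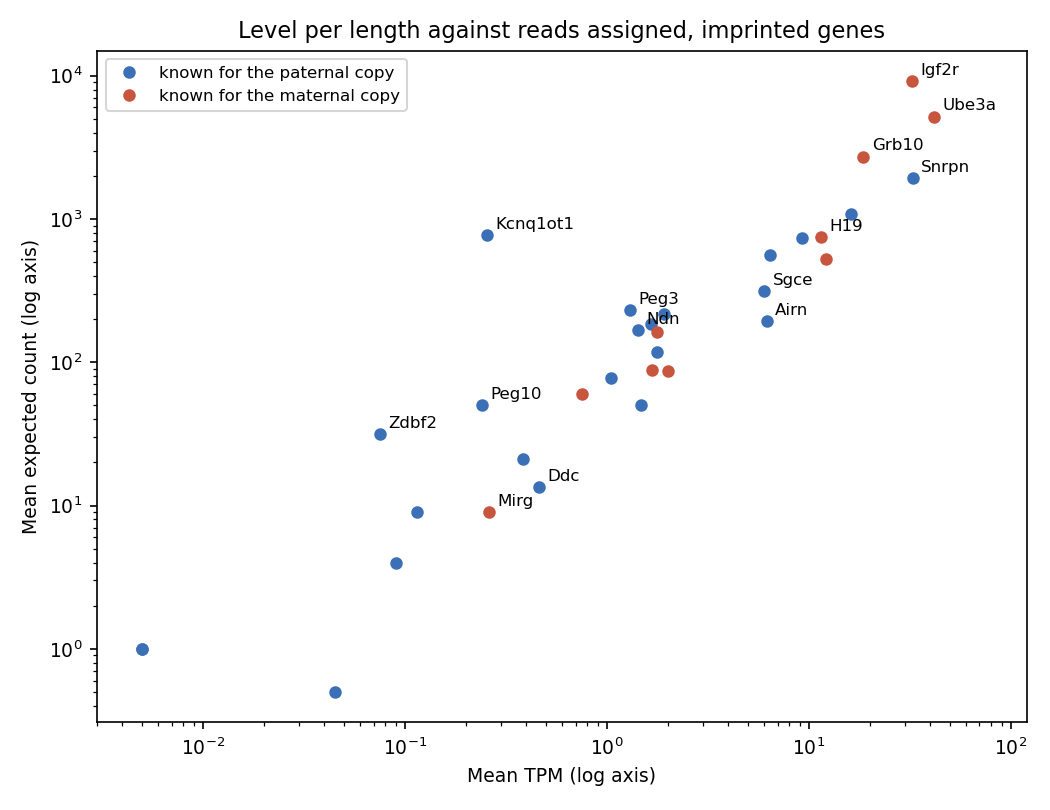
Mean expected count against mean TPM of the imprinted genes with a value above 0, both on log axes, coloured by the known parental copy. Kcnq1ot1 stands apart, with a count near that of H19 but a level of 0.255 TPM, because its entry is 93092 bases long.

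The Prader-Willi and Angelman region on chromosome 7 held the highest and some of the lowest levels of the set. Ube3a, a ubiquitin ligase imprinted in neurons and transcribed from both copies elsewhere, was the highest at 42.61 and 40.91 TPM. By mean TPM it ranked 1255 among annotated genes. Snrpn, which encodes the spliceosome protein SmN, stood at 31.45 and 34.00 TPM. Its neighbours were low: Ndn, a growth-suppressing MAGE protein, stood at 1.65 and 1.22 TPM, and the ring finger gene Mkrn3 at 0.16 and 0.07 TPM. Magel2, another MAGE gene, was listed at 0 in library 1 and 0.01 TPM in library 2, on 2 counts, and the 0 allows up to 0.01997 TPM. Snhg14, the host transcript whose far end runs antisense to Ube3a in neurons, stood at 2.16 and 2.09 TPM. It overlaps Ube3a by 3613 bases, and its ratio to Ube3a was 0.0509 ± 0.0003.

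Snurf, the upstream reading frame, is annotated on the same strand within Snrpn. The first quantification gave Snurf 109.69 and 90.40 TPM on 422 and 327 expected counts, while the second gave it 0. Snrpn itself was similar in both, with 29.2 and 30.6 TPM in the second. The first put all of Snrpn on transcript Snrpn-201 and the second all on Snrpn-202. The gene level thus moved little between the quantifications while the isoform changed, and the Snurf level is uncertain.

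The Dlk1 to Meg3 cluster on chromosome 12 was present mainly through its maternal non-coding RNAs, at low levels. Meg3, the RNA at its control region, stood at 1.51 and 1.83 TPM. Rian, the host of many small nucleolar RNAs, stood at 2.73 and 1.29 TPM, and Mirg, the host of a large microRNA cluster, at 0.43 and 0.09 TPM. Rian and Mirg were higher in library 1 while Meg3 was not. The paternal protein-coding genes rested on a few reads. Dlk1, a NOTCH-like inhibitor of adipocyte differentiation, stood at 0.15 and 0.03 TPM on 5 and 3 counts, and Rtl1, a retrotransposon-derived gene needed in placenta and muscle, had 1 count in each library.

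Imprinted genes host many microRNAs, and 56 mature sequences from 30 microRNA genes of RefSeq (GRCm38.p6) lie within members of the set. Mirg holds 26 of them, and 13 lie within Rtl1, where 6 of 7 annotated microRNA genes are on the opposite strand. Impact was left out of this search. Those of H19, Igf2 and Mest, and miR-127 opposite Rtl1, are shown to make clear what these loci encode, with the seed (bases 2 to 8) in capitals.
mmu-miR-675-5p (H19): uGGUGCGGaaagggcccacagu
mmu-miR-675-3p (H19): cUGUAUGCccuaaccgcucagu
mmu-miR-483-5p (Igf2): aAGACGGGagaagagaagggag
mmu-miR-483-3p (Igf2): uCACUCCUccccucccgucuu
mmu-miR-335-5p (Mest): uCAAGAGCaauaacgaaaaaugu
mmu-miR-335-3p (Mest): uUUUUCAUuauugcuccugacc
mmu-miR-127-5p (opposite Rtl1): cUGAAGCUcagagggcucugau
mmu-miR-127-3p (opposite Rtl1): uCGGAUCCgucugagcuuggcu

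The 56 sequences have 55 seeds. The only seed they share is GGUUGCC, in mmu-miR-453 and mmu-miR-496a-5p. Levels of mature microRNAs were not measured by these libraries. In the gene tables, 34 annotated microRNA genes and 13 small nucleolar RNA genes lie within the set, and all were listed at 0 counts. Of these, 31 and 13 are at most 100 bases long, a length that received no value in the first quantification, so those zeros say nothing about the small RNAs. H19, Igf2 and Mest host transcripts were present at the levels given for them.

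The paternal zinc finger gene Peg3 and its neighbours on chromosome 7 were low. Peg3, a regulator of cell survival and metabolism, stood at 1.12 and 1.5 TPM. Usp29, a ubiquitin protease gene whose start lies 146 bases from that of Peg3 on the other strand, stood at 0.09 TPM in library 1 on 1 count and was listed at 0 in library 2. The second quantification gave Usp29 more, 0.148 and 0.0535 TPM on 17.0 and 9.13 counts. Peg3 had 231 and 233 counts in the first quantification and 258 and 247 in the second, and its ratio to Usp29 there was 6.24 and 20.7 by TPM. The gap between the starts, printed above, holds 5 CpG. Zim1, the maternal zinc finger gene nearby, stood at 0.90 and 0.60 TPM.

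A similar imbalance held for Sgce and Peg10 on chromosome 6. Sgce, the epsilon-sarcoglycan of the dystrophin-associated complex, stood at 6.25 and 5.77 TPM. Peg10, a retrotransposon-derived gene that is essential for placenta, starts 98 bases away on the other strand and stood at 0.27 and 0.21 TPM. The ratio of Peg10 to Sgce was 0.0398 ± 0.0048. On the same chromosome Mest, a hydrolase gene of mesoderm, stood at 2.00 and 1.56 TPM, and Asb4, a maternal ankyrin-repeat gene of the vasculature, at 1.77 and 1.78 TPM. Of 21 genes with a mean of at least 1 TPM, Asb4 had the lowest coefficient of variation, 0.398%.

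Impact, a paternal regulator of the GCN2 stress response, stood at 8.14 and 10.29 TPM. Its expected counts were close, 744 and 729, and the interval of its count ratio, 0.949 to 1.17, included 1. The average transcript length assigned to it was 2856 bases in library 1 and 2371 in library 2. Of the remaining paternal genes, some lie inside larger host genes. Nnat, a proteolipid of neuronal and endocrine cells, stood at 1.33 and 1.61 TPM within Blcap (15.32 and 14.57). Nap1l5, a retrogene of the nucleosome assembly family, stood at 0.42 and 0.35 TPM within Herc3 (26.64 and 23.89). Inpp5f, a phosphoinositide phosphatase with an imprinted brain isoform, stood at 1.98 and 1.88 TPM, and Slc38a4, an amino acid transporter of liver and placenta, at 0.95 and 1.16 TPM. Zdbf2, a gene of hypothalamic function, stood at 0.07 and 0.08 TPM. Blcap and Herc3 were above the imprinted gene inside them in both libraries.

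Zrsr1, a splicing factor retrogene inside Commd1, was the gene on which the quantifications disagreed most. The first gave it 6.79 and 6.03 TPM, and the second 56.2 and 12.5 TPM. The libraries were close in the first and far apart in the second. Commd1 stood at 44.8 and 51.06 TPM in the first. The first quantification placed 51.9% ± 3.5 of Zrsr1 on a transcript of 1287 bases typed as a processed pseudogene, and the second placed all of it on the protein-coding one of 4492 bases. Zrsr1 was the only one of 21 genes with a mean of at least 1 TPM whose 2 values lay at least 1.5 times apart, on TPM plus 1, beside 5.45% of all such genes.

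**Figure D3:**
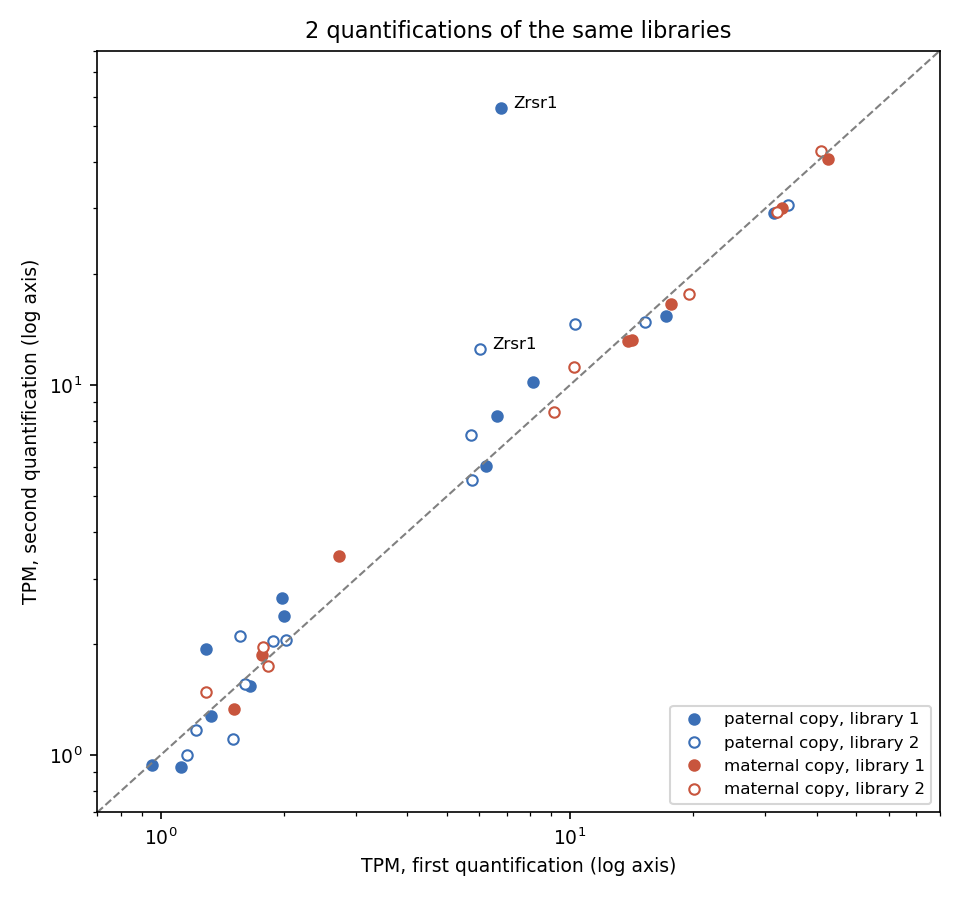
TPM in the second quantification against the first, both on log axes, for 21 imprinted genes with a mean of at least 1 TPM, with filled points for library 1 and open points for library 2. The dashed line marks equal values, and Zrsr1 lies above it in both libraries.

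Grb10 and Igf2r each took most of their TPM from 1 start. Transcripts with a 5′ end in Grb10 window 1, which has 45 CpG in 300 bases, held 85.7% and 79.7% of Grb10 TPM (82.7% ± 4.2). Those in window 2, with 9 CpG, held 10.0% and 4.81% (7.41% ± 3.67). The Igf2r window with 34 CpG held 99.7% ± 0.1 of Igf2r TPM. Igf2 was spread over its windows: window 4 held 30.4% ± 3.5, window 1 held 16.0% ± 5.8, window 2 held 8.05% ± 0.40, and window 3, with 24 CpG, held 0. A further 29.8% ± 0.2 lay on Igf2-208, a processed transcript of 958 bases that starts in none of the 4 windows. In the second quantification Igf2 window 1 held only 3.69% ± 3.12 and window 2 held 10.0% ± 1.3, so their order turned, as it did by counts (4.24% and 15.2%). These shares rest on how the quantification split reads among overlapping transcripts.

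**Figure D4:**
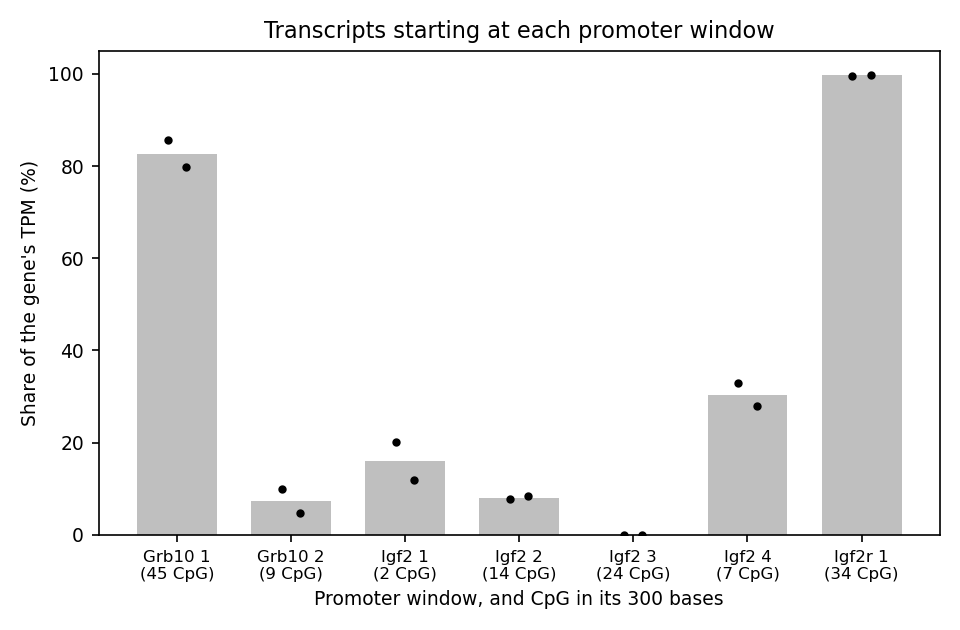
Share of the gene's TPM held by transcripts whose 5′ end lies in each RefSeq promoter window of Grb10, Igf2 and Igf2r, with bars for the mean and points for the 2 libraries. The Grb10 window 1 and the Igf2r window hold 82.7% and 99.7%. Igf2 window 3 is at 0 because no annotated transcript starts in it.

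Across the 21 genes with a mean of at least 1 TPM, the leading transcript held a median of 63.9% of its gene's TPM, and 14 led with over 50%. The same transcript led in both libraries and both quantifications for 12 of the 21. For Ube3a the leading transcript of the first quantification, Ube3a-203, held 27.7% ± 1.7 of TPM and 70.1% ± 1.9 of counts. For Plagl1 the leading transcript, of 5260 bases, held 94.6% in library 1 and 45.0% in library 2. For Rian a different transcript led in each library: Rian-202 in library 1, with 25.2%, and Rian-213 in library 2, with 49.6% against 19.3% in library 1.

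The libraries resembled each other, and the differences within the set were modest. None of 21 genes reached a 2-fold TPM ratio between the libraries, on TPM plus 1, beside 0.603% of genes tested (0.377% higher in library 2 and 0.226% higher in library 1). The median log2 ratio of library 2 to library 1 was -0.05, with 9 genes higher and 12 lower in library 2, beside -0.01 over all genes with a mean of at least 1 TPM. Spike-in scaling turned the tally, to 12 higher and 9 lower. The median coefficient of variation was 13.5%, beside 5.96% for all such genes, whose median level was 7.05 TPM against 5.99 ± 0.37 TPM for the set. The medians hide a difference in levels. At least 2 TPM in both libraries was reached by 11 members, in place of 20 at 1 TPM, beside 9960 in place of 11650 annotated genes. A larger part of the set thus lay near 1 TPM, and the part of level in its spread was not tested.

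By expected counts per library total, 6 of 29 genes with at least 10 counts had a 95% exact interval wholly below 1, beside 9.68% of all genes, and 1 of 29 had one wholly above 1, beside 11.4%. The interval lay on a side of 1 for 7 of 29 (24.1%), beside 21.1%. Among genes with a mean of at least 1 TPM, 5 of 21 lay below, beside 10.4%, and 1 of 21 above, beside 12.8%. These intervals cover counting error only. Over 17147 genes, chi-square divided by its degrees of freedom was 5.35, so the libraries differed by more than counting error in general. H19 had 942 and 553 expected counts and a ratio of 0.631 (0.567 to 0.701). Rian gave 111 and 62 counts and a ratio of 0.60 (0.432 to 0.826). Cdkn1c gave a ratio of 0.798 (0.705 to 0.903), Igf2 0.830 (0.761 to 0.904) and Ndn 0.747 (0.596 to 0.934). Mirg gave 0.307 (0.0736 to 0.977) on 14 and 4 counts. Snrpn was the gene above 1, at 1.09 (1.03 to 1.16).

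Some marker sets of other cells also differed between the libraries, in both directions. All 6 adipocyte markers were higher in library 2. In TPM all 6 fibroblast markers were lower (summed 421.29 and 393.99), as were all 4 pericyte and smooth muscle markers (134.85 and 122.53) and both mesothelial markers (11.18 and 8.85). By counts, the interval lay wholly below 1 for only 3 of 6 fibroblast and 1 of 4 pericyte and smooth muscle markers, and for both mesothelial markers. Endothelial markers summed to 398.43 and 406.5 TPM, of which Fabp4 held 252.55 and 272.1. The other 4 of 5 were lower in library 2, each with a count interval wholly below 1, while that of Fabp4 lay above 1. Other sums were 34.38 and 35.37 TPM for macrophage markers and 1171.76 and 1139.96 for blood. The skeletal muscle list summed to 1329.69 and 1361.13 TPM, nearly all of it Ckm (1117.92 and 1170.46) and Acta1 (205.90 and 183.27). The highest of its other genes was Tnnt3, at 2.98 and 3.73 TPM. The summed atrial markers were 1163 and 1551 TPM. Nerve and glia markers summed to 3.34 and 3.33 TPM, with 1 of 9 detected. In bulk tissue, fewer cells of a type and less RNA per cell cannot be told apart. The part of these cells in the ratios of the imprinted genes was not tested.

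**Figure D5:**
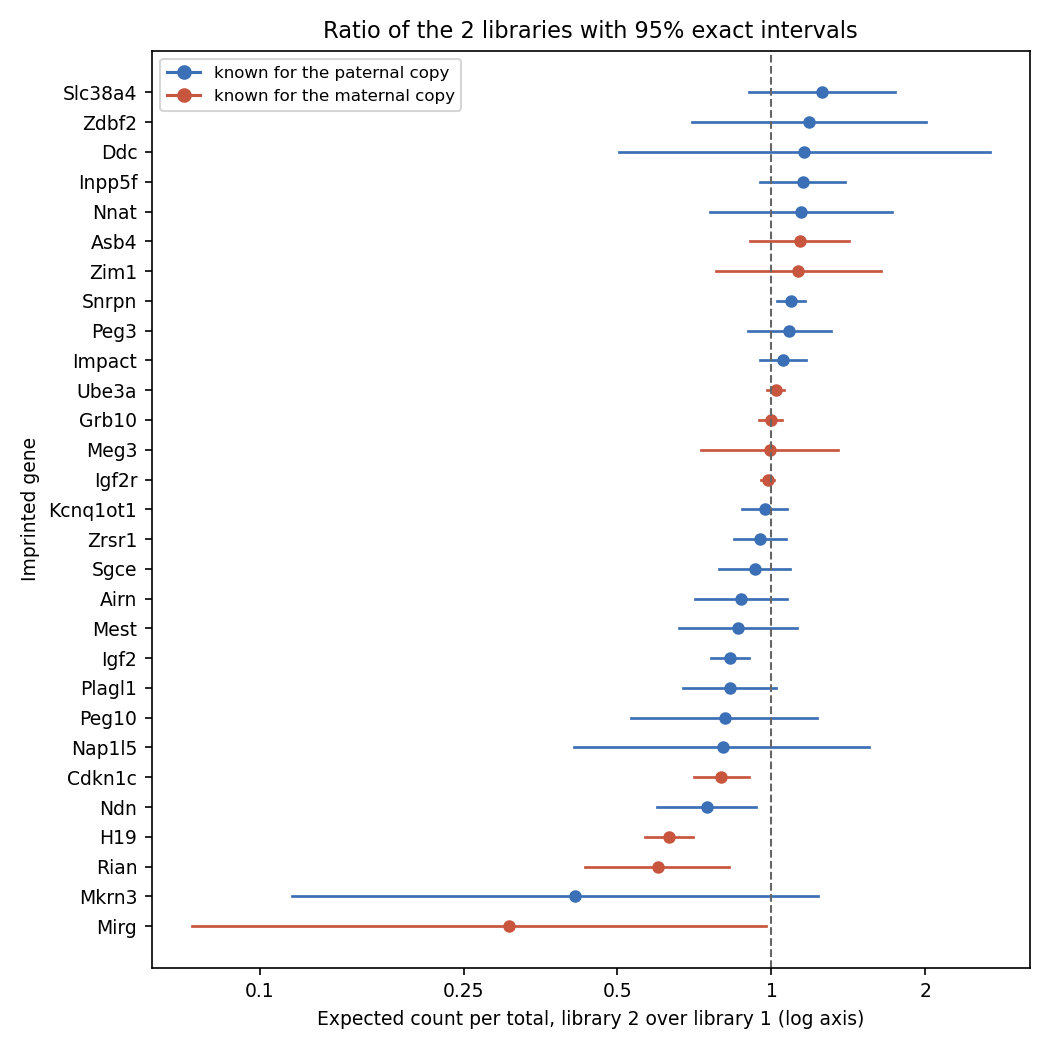
Ratio of expected counts per total, library 2 over library 1, with 95% exact intervals for counting error, for 29 imprinted genes with at least 10 counts in a library. The dashed line marks 1. The intervals of Mirg, Rian, H19, Ndn, Cdkn1c and Igf2 lie below it and that of Snrpn lies above.

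TPM and counts did not always point the same way. For 5 of 21 genes (Grb10, Inpp5f, Meg3, Plagl1 and Ube3a) the TPM ratio and the count ratio lay on opposite sides of 1, beside 18% of all genes tested. For 4 of 21 (Mest, Nnat, Plagl1 and Rian) the TPM lay outside its own deposited interval in a library, beside 6.32%. Rian, for example, was listed at 1.29 TPM in library 2 with an interval of 1.79 to 3.36.

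Other genes of the same clusters and pathways were taken from 3 lists. Of 50 further imprinted genes and cluster neighbours, 29 were at 1 TPM or more in both libraries, beside 21% of annotated and 48.9% of protein-coding genes, and 0 reached 2-fold. The highest were Gnas, the stimulatory G protein subunit, at 372.87 and 378.29 TPM, the tetraspanin Cd81 at 126.45 and 125.71, Snurf, and Nap1l4, a nucleosome assembly protein, at 58.47 and 61.34. Gnas alone thus stood above the sum of the 35 genes, which was 217.15 TPM in library 1 and 206.89 in library 2. Of 14 genes that set, keep or remove the marks of imprints, Tet1, Tet2 and Tet3 included, 9 were detected, beside the same 21% and 48.9%. The highest were the zinc finger protein Zfp445, which guards imprints, at 30.14 and 29.53 TPM and its corepressor Trim28 at 26.49 and 29.09, whose order was the reverse in the second quantification (means of 26.5 and 28.4). Below them stood the methyltransferase Dnmt3a (18.90 and 15.58) and the insulator protein Ctcf (11.90 and 14.47). Zfp57, the other guard of imprints, stood at only 0.32 and 0.21 TPM.

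Of 18 genes of the insulin-like growth factor axis, 11 were detected, beside the same shares. The binding protein Igfbp7 led at 53.88 and 53.35 TPM. The insulin receptor Insr (37.26 and 34.35), the protease Htra1 (34.57 and 35.43) and Igfbp5 (36.39 and 32.13) came next and overlapped between the libraries. Igf1r, the receptor through which IGF2 signals, stood at 4.07 and 3.87 TPM, below Igf2r in both libraries. Igf1 stood at 2.57 and 3.15 TPM, below Igf2. By counts, 5 of 13 genes of this list had an interval wholly below 1, beside 9.68% of all genes, and 1 had one wholly above, beside 11.4%. Igf1r and Igf1 were named after their values were seen.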

How the data were processed

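Total RNA from 2 libraries of mouse heart was analysed from the deposited tables. Per the deposited readme, the build was mm10 and the annotation GENCODE M21. Aligner, quantification tools and strand setting are not given in these sources. The first quantification gives expected counts per gene and transcript, per the file headers. Its deposited TPM and FPKM values are scaled for length and library by the authors, and the deposited posterior mean TPM and its interval, of unstated level, were used as deposited. The deposited posterior SD and interval bounds are handled as scores, and the SD, at 0 for 31 of 35 members, does not hold counting error; the transcript tables hold a deposited percent per isoform. Per the file headers, the second quantification is a transcript table with estimated counts and TPM, which were summed per gene here. Entries other than annotated genes and spike-ins (26249, with 190 and 218 counts) were left out.

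The members and gene lists were chosen with earlier results of these data known. Per-library values are given for every member with a mean of at least 1 TPM; others are given by examples, and lists by their first 4 genes. Detected means at least 1 TPM in both libraries. Ratios are log2((TPM of library 2 + 1)/(TPM of library 1 + 1)), and the 2-fold rule asks for at least 10 counts and a mean of at least 1 TPM. Count ratios carry an exact Clopper-Pearson 95% interval, and the floor of a 0 is 3 counts. Rounded expected counts went to edgeR 4.0.16 for TMM and to DESeq2 1.42.0 for size factors only, and the rules were tested on simulated data. Python 3.11.15, pandas 2.3.3, scipy 1.17.1 and R 4.3.3 were used. The alternatives are listed in the closing section.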

Additional observations from a re-analysis of the deposited data

How the results depend on the processing

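No paired analysis was possible because the samples form 1 group. At a threshold of 2 TPM, 11 members were detected in both libraries in place of 20; all other settings gave 19 to 26, and leaving out a library gave 20 to 21. The median TPM of 1.42 became 1.18 as FPKM, 2.50 as TPM rescaled to nuclear annotated genes and 1.79 as posterior mean TPM, an alternative added after seeing the data; without a library it was 1.33 to 1.5. The share of nuclear TPM of 0.0375% became 0.0412% in the second quantification, 0.108% by expected counts and 0.0301% without Ube3a, and 0.0362% to 0.0388% without a library. The median log2 ratio of -0.05 reversed to 0.0405 with spike-in scaling, which moved the median of all genes to 0.08, so the members lay 0.04 below that median under both; TMM gave -0.03 and DESeq2 size factors -0.04. The 6 members with count ratios below 1 and Snrpn above 1 kept their direction under all 7 scalings and quantifications compared, 1 of which (scaling by the count total) was also added after seeing the data. At 2-fold, 1 member passed with a pseudocount of 0.1 (Rian) and 1 in the second quantification (Zrsr1), against 0. Of 16 fixed pairs, the first gene was higher in both libraries in 5, also in the second quantification and without either library, and in 4 by counts. The median share of the leading transcript was 63.9%, became 50.7% in the second quantification and was 56.0% to 65.8% without a library. Per-member TPM moved by more than its SD for 10 of 21 members in the second quantification, 13 as FPKM and 8 as posterior mean, which for these members and for detection was likewise added after seeing the data. The cause of these shifts was not tested. With 2 libraries the spread rests on 1 difference per gene, and members under 10 counts are known only to be low.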
